A study of Mus musculus with 6 samples.

Results

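Fibroblast identity markers are genes that fibroblasts of the heart transcribe at high levels and that cardiomyocytes transcribe little or not at all, so their signal in a cardiomyocyte preparation was read as a measure of fibroblast carry-over. The markers described here are 10 genes, Pdgfra, Tcf21, Ddr2, Dpt, Mfap4, Mfap5, Thy1, Pcolce, Islr and Htra3, taken from all non-control spots whose gene name on the array equals one of them. They were represented by 29 of 59305 spots and by 11 of 55681 probes, and all 10 were among the 21888 genes tested. All 11 probes were well above background on all 6 arrays, so no marker was lost to the filter on dim probes, and none passed it through 1 genotype alone.

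The study compared adult H19 KO mice with wt littermates, both 6 weeks after transverse aortic constriction (TAC), a narrowing of the aorta that loads the left ventricle with pressure. Cardiomyocytes were isolated by retrograde perfusion, and their RNA was hybridised to 1-colour Agilent mouse arrays, 3 for H19 KO and 3 for WT. All mice had TAC, unoperated hearts were not analysed here, and the labels do not state which stretch of H19 the allele lacks. The labels call the mice littermates but do not say that each array held the RNA of 1 animal, so p-values measure only the spread between these samples, and 3 arrays per genotype limit the precision.

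Cardiac fibroblasts arise mainly from the epicardium and make and remodel the collagen and microfibril network between the myocytes. Pressure overload is known to activate them, after which they deposit more collagen. Digestion of a heart by perfusion frees all of its cells, and the large cardiomyocytes are usually separated from the smaller cells by settling or slow centrifugation, which leaves a variable number of smaller cells behind.

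Levels are given as the log2 of the processed signal minus the array's own 75th percentile, so a level of 0 is that percentile, and levels of different probes were not set against each other. Between 48.8% and 58.6% of spots were well above background on an array, and no spot was saturated. H19, the long non-coding RNA removed in the knockout, had levels of -5.97, -6.72 and -6.28 on the H19 KO arrays, against 1.41, 0.46 and 0.53 on the WT arrays (adjusted p = 0.00236, limma with Benjamini-Hochberg adjustment). Its probe, at chr7:149761492-149761551 of mm9, was above background on no H19 KO array, and its level was at least 32.7-fold higher in WT. Cardiomyocyte markers were present on every array, with Myh6 (alpha myosin heavy chain) at 8.0, 8.16 and 8.18 on the H19 KO arrays and 8.32, 8.43 and 8.28 on the WT arrays.

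The probes that carry the marker signal are 60-base oligonucleotides whose mm9 coordinates come from the file headers. The probes of Tcf21 and Htra3 and the upstream probe of Ddr2 are shown as examples of the marker probes. The Ddr2 probe was picked because this gene was measured with a second one. A reading frame without a stop codon was found in these 3 and in 10 of all 11 marker probes, so it does not set them apart. They lie on the minus strand at chr10:22537563-22537622, chr5:36006658-36006717 and chr1:171914554-171914613.
Tcf21: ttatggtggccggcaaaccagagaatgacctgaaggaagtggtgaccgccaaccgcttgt
Htra3: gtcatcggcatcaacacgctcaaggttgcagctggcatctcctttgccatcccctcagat
Ddr2: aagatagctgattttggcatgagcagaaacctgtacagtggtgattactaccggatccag
Their GC content ranged over all 11 marker probes between 36.7% and 55.0%, with a median of 43.3%, and the median of all probes on the array was also 43.3%.

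The probes of Thy1, Pcolce and Mfap4 hold the letters AATAAA, the polyadenylation signal, and 30-base windows around it are shown with these letters in capitals. Where in the transcripts these probes lie was not looked up.
Thy1: aggaaagaaaactgcacAATAAAaccaagc
Pcolce: agagctcatccaAATAAAtgtttcttgact
Mfap4: agcagaggtctcAATAAActtcaggatctg
AATAAA was searched on the probe's own strand and stood in 3 of 11 marker probes and in 10.1% of the 55681 probes of the array.

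The receptors and surface proteins were highest on H19 KO replicate 2 and lowest on WT replicate 3. Pdgfra, the platelet-derived growth factor receptor alpha that marks most cardiac fibroblasts, had levels of 0.75, 2.09 and 1.34 in H19 KO, against 1.14, 0.42 and 0.11 in WT. WT replicate 1 lay above H19 KO replicate 1, so the genotypes overlapped. Its mean was 1.39 ± 0.67 in H19 KO and 0.55 ± 0.53 in WT (SD, n = 3 each), a log2 difference of 0.84 (SE 0.40, 95% interval -0.11 to 1.78) with a limma adjusted p of 0.644. In these bulk samples, a different number of fibroblasts and a different amount of marker RNA per fibroblast cannot be told apart.

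Ddr2, a receptor tyrosine kinase for fibrillar collagens, had levels of -0.24, 1.17 and 0.50 in H19 KO, against 0.59, 0.26 and -0.34 in WT, with overlap between the genotypes. The log2 difference was 0.31 (SE 0.39, 95% interval -0.63 to 1.25, limma adjusted p = 1.0). The upstream Ddr2 probe printed above, which starts 11437 bases from the probe used, gave levels of -3.0, -1.96 and -2.54 in H19 KO, against -2.21, -2.47 and -3.70 in WT. Its difference of 0.29 (SE 0.44) had the same sign and nearly the same size.

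Thy1, a glycosylphosphatidylinositol-anchored surface protein that is also carried by T cells and neurons, had levels of 1.11, 2.35 and 2.31 in H19 KO, against 2.16, 1.64 and 0.91 in WT. H19 KO replicates 2 and 3 stood together here, with WT replicate 1 close below them, and H19 KO replicate 1 lay among the WT arrays. The log2 difference was 0.36 (SE 0.44, 95% interval -0.68 to 1.39, limma adjusted p = 1.0).

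Tcf21, a basic helix-loop-helix transcription factor needed for epicardial cells to become fibroblasts, had levels of -1.05, 0.58 and -0.50 in H19 KO, against -0.32, -0.88 and -1.19 in WT. H19 KO replicate 1 lay below 2 of the 3 WT arrays. The log2 difference was 0.47 (SE 0.43, 95% interval -0.56 to 1.5, limma adjusted p = 0.910).

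The microfibril proteins varied most between arrays. Mfap4, a fibrinogen-related glycoprotein of elastic microfibrils, had levels of 0.86, 3.35 and 0.52 in H19 KO, against 2.01, 0.51 and -0.91 in WT, a 19.1-fold span between H19 KO replicate 2 and WT replicate 3. The means were 1.58 ± 1.54 in H19 KO and 0.54 ± 1.46 in WT (SD, n = 3 each), and the difference of 1.04 (SE 0.95, limma adjusted p = 0.905) was smaller than the SD within either genotype. Its 95% interval ran from -1.21 to 3.29.

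Mfap5, which sits on fibrillin microfibrils, had levels of 2.58, 5.08 and 2.79 in H19 KO, against 3.61, 2.50 and 2.0 in WT. The array order was that of Mfap4 at both ends, and the span was 8.44-fold. The log2 difference was 0.78 (SE 0.72, 95% interval -0.94 to 2.49, limma adjusted p = 0.911).

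Genes of collagen assembly and matrix processing followed. Dpt, or dermatopontin, an extracellular protein that binds decorin and helps collagen fibrils form, had levels of 0.01, 1.55 and 0.62 in H19 KO, against 0.12, -0.20 and -0.53 in WT. The genotypes overlapped only because WT replicate 1 lay above H19 KO replicate 1. The means were 0.73 ± 0.78 in H19 KO and -0.20 ± 0.33 in WT (SD, n = 3 each), and the difference of 0.93 (SE 0.39) had the smallest unadjusted p of the 10 markers, 0.0503, with a limma adjusted p of 0.627.

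Pcolce, which speeds the removal of procollagen C-propeptides by Bmp1, had levels of 4.34, 5.72 and 4.55 in H19 KO, against 4.99, 4.19 and 4.01 in WT. H19 KO replicate 1 lay between the WT arrays, and the difference was 0.47 (SE 0.42, limma adjusted p = 0.901). Htra3, a secreted serine protease, had levels of -1.33, -0.24 and -0.95 in H19 KO, against -0.93, -1.38 and -1.97 in WT, with overlap. Its log2 difference was 0.59 (SE 0.36, limma adjusted p = 0.740).

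Islr, also called Meflin, a surface protein of mesenchymal stromal cells and fibroblasts, had levels of 0.65, 2.27 and 0.92 in H19 KO, against 0.97, 0.06 and -0.59 in WT. The genotypes overlapped through WT replicate 1, and the span over the 6 arrays was 7.27-fold. The means were 1.28 ± 0.87 in H19 KO and 0.15 ± 0.78 in WT (SD, n = 3 each), and the difference of 1.13 (SE 0.53, 95% interval -0.13 to 2.40) was the largest of the 10, with a limma adjusted p of 0.640.

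**Figure D1:**
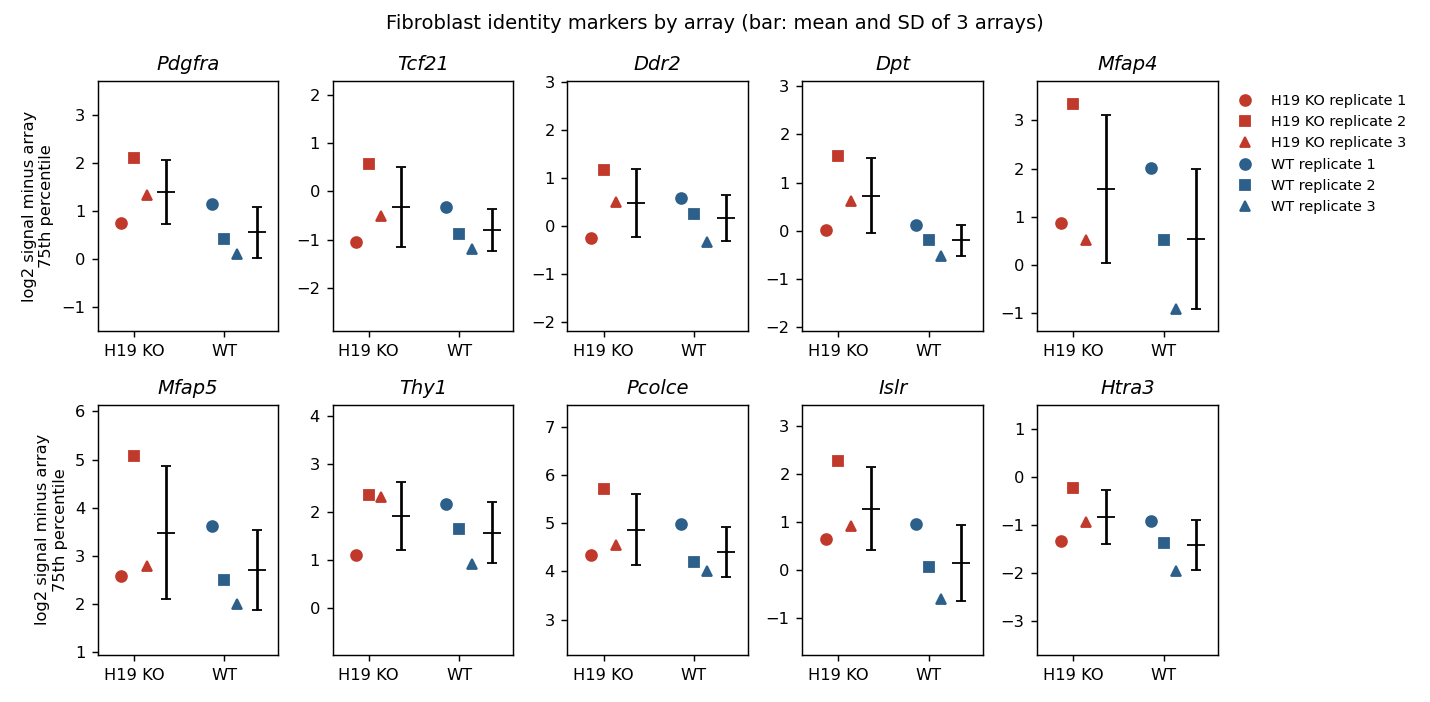
Level of each of the 10 markers on each array, as log2 signal minus the array's 75th percentile, with the 3 H19 KO arrays left of the 3 WT arrays in every panel and the mean and SD of 3 arrays beside each group. All panels span the same log2 range, and in every panel H19 KO replicate 2 is the highest array and WT replicate 3 the lowest, 4.26 apart for Mfap4 and 1.44 apart for Thy1.

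By genotype, all 10 markers had a higher mean in H19 KO than in WT, by between 1.24-fold (Ddr2) and 2.20-fold (Islr), with a median log2 difference of 0.68. The median over all 21888 genes was -0.06, and 36.3% of genes had a positive difference. None of the 10 passed the test: adjusted p-values ran from 0.627 to 1.0 in limma, and 0 of 10 reached an unadjusted p under 0.05, where 0.996% of all genes did so in this direction. Over all genes, 0.032% were called at an adjusted p under 0.05 in either direction. In 0 of 10 markers did the 3 H19 KO arrays all lie above the 3 WT arrays, which was the case for 1.83% of all genes, and in 0 of 10 did they all lie below, as for 8.67%, so every marker overlapped between genotypes. With 3 arrays against 3, an exact permutation test of a single marker cannot give a two-sided p below 0.1. With the arrays scaled to the median of all probes, which put the median of all genes at 0.36, 1 of 10 markers was called, Islr (1.56, limma adjusted p = 0.0281), where 0.539% of genes were, and the markers' median difference was 1.11. In that scaling 6 of 10 did not overlap, where 10.9% of genes had all H19 KO arrays above. With array weights, whose estimate stopped before convergence and put 68.8% of the weight on WT replicate 2, 5 of 10 markers and 38.9% of all genes were called, and the markers' median was 0.43.

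**Figure D2:**
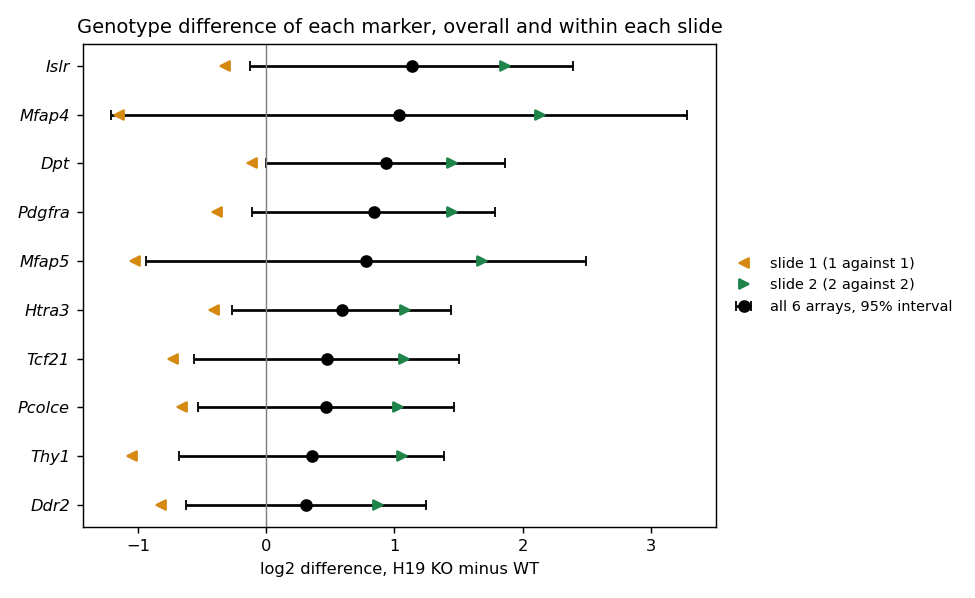
Log2 difference of each marker, H19 KO minus WT, from all 6 arrays (circle with its 95% interval), within slide 1 (left-pointing triangle, 1 array of each genotype) and within slide 2 (right-pointing triangle, 2 of each). Every interval over the 6 arrays includes 0, every slide 1 value is below 0 and every slide 2 value is above it.

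The spread between arrays was large beside that of most genes, also within 1 genotype. The median SD of the markers was 0.76 among the H19 KO arrays and 0.53 among the WT arrays, where the median over all genes was 0.22 in each. Over the 6 arrays the markers spanned between 1.44 and 4.26 on the log2 scale, with a median of 1.88, where the median gene spanned 0.66. All 10 varied by at least 2-fold between their highest and lowest array, as did 32.4% of all genes. Repeat spots on 1 array lay much closer together: the 10 spots of Dpt had an SD of 0.047 to 0.074 within an array, against an SD of 0.74 across arrays. For Pdgfra the corresponding values were 0.047 to 0.079 within an array and 0.71 across arrays.

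The markers shared both ends of the array order. H19 KO replicate 2 was the highest array and WT replicate 3 the lowest for 10 of 10 markers, a pair of positions that 4.94% of all genes had. H19 KO replicate 3 lay above WT replicate 2 for 10 of 10, as for 38.7% of genes, and the second highest array was WT replicate 1 for 7 markers and H19 KO replicate 3 for 3. Taken as the mean over the markers of each level minus its own mean, the marker level was -0.34, 1.28 and 0.10 on the H19 KO arrays, against 0.32, -0.40 and -0.96 on the WT arrays. The highest array thus stood 4.73-fold above the lowest. By genotype, the mean was 0.35 ± 0.84 in H19 KO and -0.35 ± 0.64 in WT (SD, n = 3 each), a gap smaller than the SD of the H19 KO arrays, and the ranges overlapped. Tcf21 and Pdgfra followed this common profile most closely, with a root-mean-square difference of 0.168 each over the 6 arrays, and Mfap4 least closely, with 0.693.

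H19 KO replicate 2 also had the most spots well above background, 58.6%, while H19 KO replicates 1 and 3 had 48.8% and 51.2% and the WT arrays 54.5%, 55.3% and 55.4%. WT replicate 3, the lowest array for every marker, was not low in this measure. The part of spot detection in the marker levels was not tested.

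The slide on which an array lay divided the comparison. Slide 1 held H19 KO replicate 1 and WT replicate 1, and slide 2 held the other 4 arrays. On slide 1 all 10 markers were lower in H19 KO than in WT, with a median difference of -0.69, and on slide 2 all 10 were higher, with a median of 1.27. A positive difference was found for 48.5% of all genes on slide 1 and for 28.5% on slide 2. This pair of signs was shared by 18.1% of all genes. Slide 1 holds 1 array of each genotype, so slide and array cannot be told apart there. On slide 1 the difference was -1.15 for Mfap4, -1.05 for Thy1 and -1.02 for Mfap5, and on slide 2 it was 2.13, 1.06 and 1.68 for the same genes. Dpt had the smallest slide 1 difference, -0.11.

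A fit with a genotype by slide term, added after the data were seen, gave slide 2 minus slide 1 differences of 1.49 to 3.28 for the 10 markers. Slide 1 holds 1 array of each genotype, so the residual spread comes from slide 2 alone, and the term was chosen because of the opposite signs. The unadjusted p-values in limma ran from 0.00769 (Thy1) to 0.108, and 7 of 10 were under 0.05, where 8.15% of all genes were. After adjustment over all genes the p was 0.595 for each of the 10, and 0.0% of genes passed.

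The size of the difference moved with single arrays, while its direction in the median held whichever 1 array was left out. Without H19 KO replicate 2 the median difference of the markers was 0.15, and 8 of 10 were higher in H19 KO (44.2% of all genes), with Ddr2 at -0.04 and Mfap5 at -0.02. Tcf21 was then at 0.02, Pcolce at 0.04, Mfap4 at 0.15, Htra3 at 0.29, Pdgfra at 0.49, Dpt at 0.52 and Islr at 0.64, and Thy1 was lowest, at 0.02, without WT replicate 3. The median without WT replicate 3 was 0.32, and all 10 were higher in H19 KO (41.5% of all genes). Leaving out H19 KO replicate 1 gave 1.0, and leaving out WT replicate 1 gave 0.97, whereas leaving out H19 KO replicate 3 or WT replicate 2 gave 0.75 and 0.64. The median was below 0 without both H19 KO replicate 2 and WT replicate 3 (an alternative added once their values were known), at -0.16, and 4 of 10 markers were higher in H19 KO (45.1% of all genes). Pdgfra, Dpt, Islr and Htra3 were these 4. Without H19 KO replicate 1, the H19 KO arrays all lay above the WT arrays for 3 of 10 markers (4.70% of all genes), and without WT replicate 1 for 7 of 10 (4.07% of all genes).

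**Figure D3:**
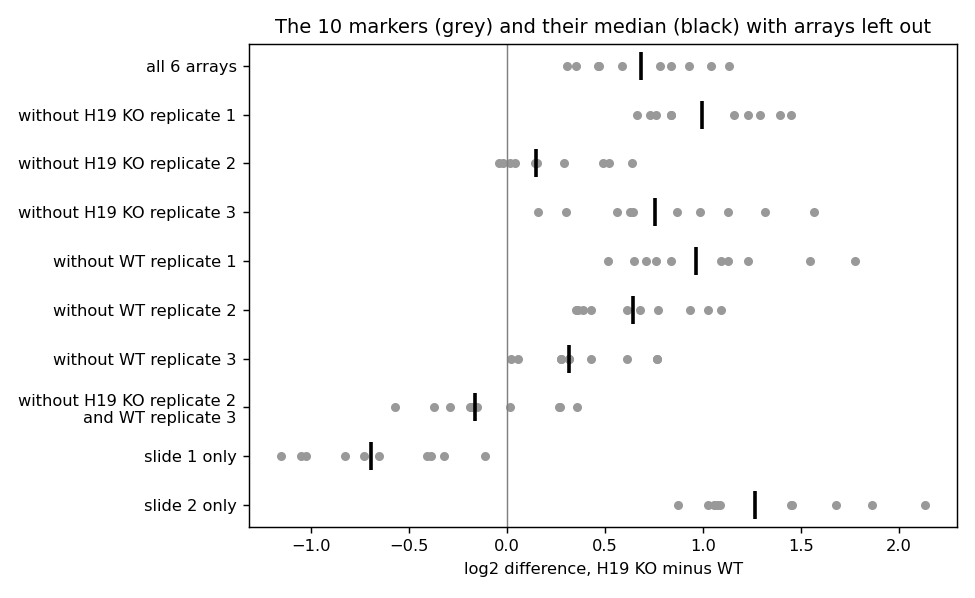
Log2 difference, H19 KO minus WT, of each of the 10 markers (grey points) and their median (black line) with all 6 arrays, with arrays left out, and within each slide. The median is 0.68 with all arrays, 0.15 without H19 KO replicate 2, -0.16 without H19 KO replicate 2 and WT replicate 3, -0.69 on slide 1 and 1.27 on slide 2.

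Set beside the cardiomyocyte markers, the fibroblast markers varied far more. The list of 12 sarcomere and calcium-handling genes had a level of 0.09, -0.21 and 0.01 on the H19 KO arrays, against -0.01, 0.08 and 0.05 on the WT arrays. H19 KO replicate 2 was the lowest array for 11 of its 12 genes, and the share of all genes lowest there was not computed. Of the 12, 3 were higher and 9 lower in H19 KO, with a median of -0.05 (0.37 with the arrays scaled to the median of all probes) and 0 called. For 2 of the 12, Myh6 and the myosin light chain gene Myl3, all H19 KO arrays lay below all WT arrays, as for 8.67% of all genes. Subtracting this level from the marker level gave -0.43, 1.49 and 0.09 in H19 KO, against 0.34, -0.48 and -1.01 in WT, so the marker signal per cardiomyocyte signal differed 5.69-fold between the highest and the lowest array.

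Other genes of resident fibroblasts mostly had the same highest and lowest array. This second list of 20 genes, all tested and all with a higher mean in H19 KO, had a median difference of 0.61. Of these genes, 18 of 20 were highest on H19 KO replicate 2 (13.0% of all genes) and 15 of 20 lowest on WT replicate 3 (14.4%). The level of this list was -0.21, 1.12 and 0.07 in H19 KO, against 0.23, -0.40 and -0.81 in WT. None was called, and without H19 KO replicate 2 the median was 0.26. Of the 20, 1 had no overlap between genotypes, where 1.83% of all genes had all H19 KO arrays above. This was Ogn, a small leucine-rich proteoglycan, with 5.36, 5.29 and 5.05 in H19 KO against 4.73, 4.71 and 4.83 in WT (difference 0.47, SE 0.15, limma adjusted p = 0.622). Ogn was highest on H19 KO replicate 1, unlike every marker.

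Dcn, or decorin, differed by 0.64 (SE 0.26) and the matrix metalloprotease gene Mmp2 by 1.20 (SE 0.55), both highest on H19 KO replicate 2 and lowest on WT replicate 3. Pdgfrl differed by 1.38 (SE 0.63) with the same array order at both ends. Their limma adjusted p-values were 0.627, 0.636 and 0.636.

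Genes of activated fibroblasts and their matrix gave a median difference of 0.55 over 24 of 25 genes tested, with 21 higher and 3 lower in H19 KO and 0 called. Without H19 KO replicate 2 alone this median was -0.0138. Cthrc1, a marker of activated cardiac fibroblasts, was above background on no array. The list's level was -0.29, 1.40 and -0.20 in H19 KO, against 0.36, -0.38 and -0.90 in WT. Of its genes, 21 of 24 were highest on H19 KO replicate 2 (13.0% of all genes). Thbs1, or thrombospondin 1, had 1.65, 3.39 and 2.08 in H19 KO, against 0.66, 0.01 and 1.45 in WT, without overlap (difference 1.67, SE 0.53, limma adjusted p = 0.622). The homeobox gene Meox1 also had no overlap, with a difference of 1.27 (SE 0.49), which made 2 of 24 genes against 1.83% of all genes, while Ccn2 differed by 0.45 and Loxl1 by 1.02.

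Ligands, co-receptors and matrix partners of the markers were less far from all genes in their median difference. H19 KO replicate 2 was still the highest array for 18 of the 26 tested (13.0% of all genes). Of 27 such genes, 26 were tested and Tll1 was not; 19 were higher and 7 lower in H19 KO, with a median difference of 0.06 and 0 called. Itgb3 differed by 1.04, the microfibril-associated gene Fbln5 by 0.60, and Pdgfrb, the receptor shared with pericytes, by 0.37. Pdgfrb had levels of 2.84, 3.72 and 3.51 in H19 KO, against 3.32, 3.15 and 2.51 in WT, and its highest and lowest arrays were those of the 10 markers. Itgb5 differed by 0.19.

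Markers of the other cells of the heart were measured to show what else moved with the fibroblast markers, and 0 members of each of these lists were called. The 12 endothelial genes had a median difference of 0.08 and a level of -0.38, 0.36 and 0.14 in H19 KO, against 0.27, -0.02 and -0.37 in WT, with 8 higher and 4 lower. Of these 12, 7 were highest on H19 KO replicate 2 (13.0% of all genes). The 10 smooth muscle and pericyte genes had a median of 0.01, with 5 in each direction. Their level was -0.20, 0.22 and -0.06 in H19 KO, against 0.15, 0.29 and -0.40 in WT. WT replicate 3 was the lowest array for 7 of these 10 (14.4% of all genes), for 3 of the 12 endothelial genes and for 0 of the 12 macrophage genes. All 12 macrophage genes were lower in H19 KO, while 36.3% of all genes had a positive difference. The macrophage median was -0.54 (-0.69 on slide 1 and -0.44 on slide 2). Their level was -0.64, 0.47 and -0.54 in H19 KO, against 0.01, 0.14 and 0.56 in WT. This level was highest on WT replicate 3, where the fibroblast markers were lowest. It was next highest on H19 KO replicate 2, where the fibroblast markers were highest, and 4 of the 12 macrophage genes peaked there (13.0% of all genes).

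Lymphocyte genes are relevant to Thy1, which T cells also carry. Of 11, 6 were tested, 4 higher and 2 lower in H19 KO, with a median difference of 0.39. WT replicate 3 was the lowest array for 5 of these 6 (14.4% of all genes). Lck, the T cell kinase, had -3.13, -1.11 and 0.41 in H19 KO, against -2.96, -4.23 and -4.68 in WT. It was highest on H19 KO replicate 3 (difference 2.68, SE 0.89, limma adjusted p = 0.622). Lck was well above background on only 4 of the 6 arrays, so the size of its difference rests partly on dim values. Cd3g, Cd2 and Cd3e, also highest on H19 KO replicate 3, differed less, by 0.50, 0.51 and 0.29. Thy1 was nearly as high on H19 KO replicate 3 (2.31) as on replicate 2 (2.35). The part of T cells in the Thy1 signal was not tested.

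The 7 tested of 9 mesothelial and epicardial genes had a median difference of 0.69, with 6 higher and 1 lower and a level of 0.09, 0.74 and 0.05 in H19 KO, against -0.03, -0.70 and -0.16 in WT. Upk1b and Lrrn4, which mark mesothelium, were not tested, and Lrrn4 was above background on no array. Of the 7 tested, 5 were well above background on all 6 arrays. Krt8 was so on only 4 and stood at -5.3 on WT replicate 2, so this list's level rests partly on dim values. The 5 tested of 7 Schwann cell genes had a median of -0.01, with 2 higher and 3 lower. Their level was -0.25, 0.41 and -0.24 in H19 KO, against 0.66, 0.21 and -0.78 in WT. WT replicate 3 was the lowest array for 3 of the 5 (14.4% of all genes). The 3 tested of 5 adipocyte genes were all higher, with a median of 0.43. Their level was 0.93, -0.90 and 0.97 in H19 KO, against 0.80, -0.04 and -1.76 in WT, so H19 KO replicate 2 was low there. All 3 were lowest on WT replicate 3 (14.4% of all genes). Cidec, at -6.44 there, was well above background on only 4 of the 6 arrays, so this list's level rests partly on dim values. The parts of these other cells in the marker differences were not tested.

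**Figure D4:**
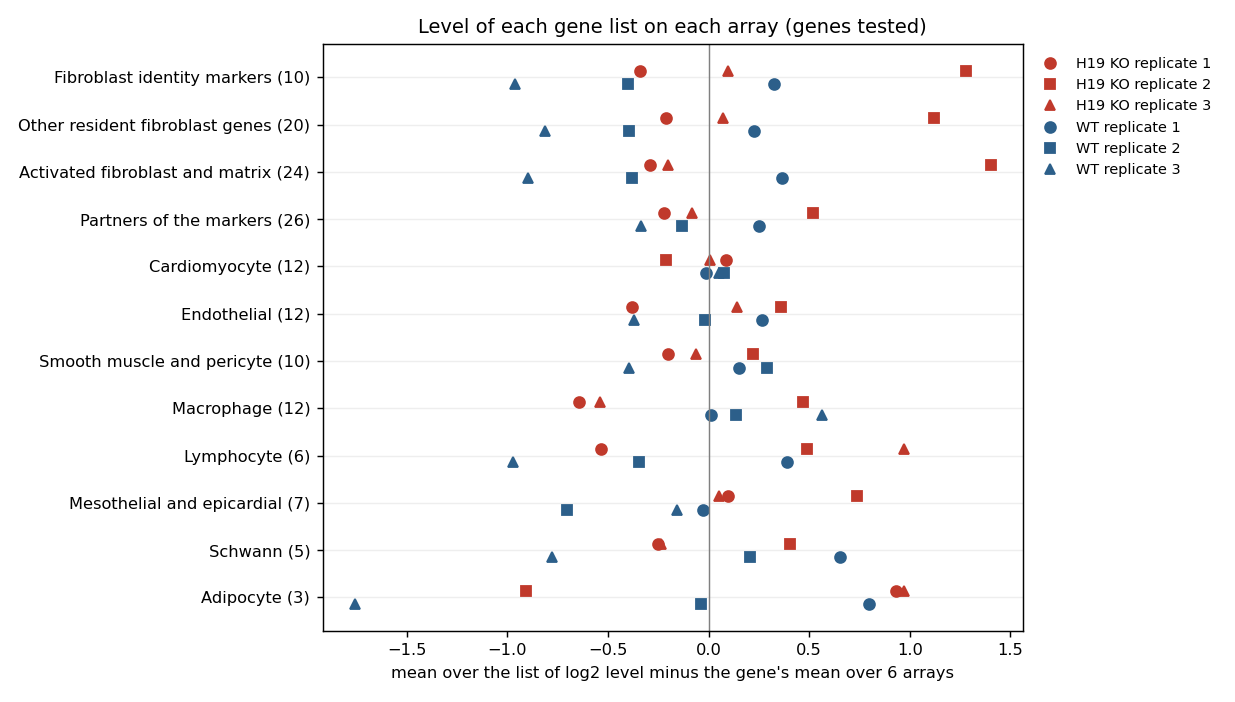
Mean over each gene list of the log2 level minus the gene's own mean over the 6 arrays, one row per list, H19 KO arrays in red above WT arrays in blue, with the number of genes tested in parentheses. The fibroblast rows run from WT replicate 3 at the left to H19 KO replicate 2 at the right (-0.96 to 1.28 for the 10 markers), whereas the cardiomyocyte row lies between -0.21 and 0.09.

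Among 13795 genes ranked by likeness of their centred 6-array profile to the mean marker profile, Thbs3 was closest, with a root-mean-square difference of 0.0584 on the log2 scale. It was followed by Rcn3 (0.0710), Col6a1 (0.0749), Abca8a (0.0771), C1qtnf5 (0.0774) and Col1a2 (0.0812), and the median over all ranked genes was 0.779. Col1a2, a chain of type I collagen, had 3.48, 5.23 and 3.90 in H19 KO, against 4.24, 3.61 and 2.85 in WT, with the highest and lowest array of the markers. Abca8a and Col1a2 belong to the resident and the activated fibroblast lists.

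The stretches before the start sites of the markers were examined because the markers moved together. RefSeq promoters (GRCm38.p6), of which the 250 bases before the start were used, were found for 7 of the 10 genes, and Mfap4, Mfap5 and Thy1 had none in the table. Basic helix-loop-helix factors such as Tcf21 bind E-boxes, so the letters CAGCTG, which read the same on both strands and are a form of CANNTG, were searched. They stood in 4 of 7 marker promoters, against 13.0% of the 32851 promoters of the table, and CANNTG stood in 5 of 7, against 66.2%. The 4 are printed 5′ to 3′ on the gene's strand with CAGCTG in capitals. Dpt is at chr1:164796413-164796662 (plus), Htra3 at chr5:35679781-35680030 (minus), Pcolce at chr5:137611405-137611654 (minus) and Islr at chr9:58158555-58158804 (minus).
Dpt: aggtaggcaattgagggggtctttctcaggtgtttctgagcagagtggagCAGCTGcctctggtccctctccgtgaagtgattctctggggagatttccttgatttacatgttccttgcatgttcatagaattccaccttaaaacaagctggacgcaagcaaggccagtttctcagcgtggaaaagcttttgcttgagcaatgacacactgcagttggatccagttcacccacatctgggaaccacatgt
Htra3: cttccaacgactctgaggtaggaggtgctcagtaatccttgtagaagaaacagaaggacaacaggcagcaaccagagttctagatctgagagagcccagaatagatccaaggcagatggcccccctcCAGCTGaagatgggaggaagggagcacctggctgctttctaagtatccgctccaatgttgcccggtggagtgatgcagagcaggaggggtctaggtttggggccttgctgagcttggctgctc
Pcolce: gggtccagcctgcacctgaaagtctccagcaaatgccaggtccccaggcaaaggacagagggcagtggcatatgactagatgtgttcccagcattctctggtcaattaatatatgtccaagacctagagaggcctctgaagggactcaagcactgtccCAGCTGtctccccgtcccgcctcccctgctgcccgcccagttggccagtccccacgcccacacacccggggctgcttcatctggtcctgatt
Islr: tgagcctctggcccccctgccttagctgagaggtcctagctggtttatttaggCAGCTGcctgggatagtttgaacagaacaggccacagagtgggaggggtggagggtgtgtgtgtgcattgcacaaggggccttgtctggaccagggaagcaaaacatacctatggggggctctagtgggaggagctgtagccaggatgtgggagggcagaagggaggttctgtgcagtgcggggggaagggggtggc
A match of letters is a description of the sequence only. The genotype differences of these 4 genes were 0.93 (Dpt), 0.59 (Htra3), 0.47 (Pcolce) and 1.13 (Islr). Those of Pdgfra, Tcf21 and Ddr2, whose windows hold no CAGCTG, were 0.84, 0.47 and 0.31. All 7 had the same highest and lowest array, and a relation between the letters and the differences was not tested.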

How the data were processed

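RNA of cardiomyocyte fractions was measured on 6 arrays, 3 per genotype, grouped by the genotype in the labels. Per the file headers, Agilent Feature Extraction 10.7.3.1 gave each spot a background-subtracted intensity, deposited by the authors as scanner output without normalization between arrays, with mm9 probe coordinates. The authors' deposited value table holds intensity that ranks spots as the scanner output does, with the same median in all arrays. Here, log2 of the processed intensity minus each array's 75th percentile was used. The 3671 control spots and outlier spots were dropped, repeat spots averaged within each probe, probes well above background on at least 3 arrays were kept (29989 of 55681), and the probe with the highest mean stood for its gene. Names were updated through RefSeq, with 26425 probes matched through their accession, 3988 through a symbol and 826 through a synonym; the other 24442 have the name given in the file.

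Genotypes were compared as H19 KO minus WT with limma 3.58.1 in R 4.3.3 (lmFit, eBayes) over 21888 genes, with Benjamini-Hochberg adjustment and a threshold of 0.05. The fit was also run on simulated arrays, with noise drawn separately for each gene and array. Shifts shared by many genes of an array were therefore not covered by it. The markers and the 11 other lists were chosen with earlier results of these data known. Genes were named by rule: the 10 markers, H19, up to 4 genes of each other list with the smallest p, and the 6 genes with the profile most like the markers. Ogn, Thbs1, Meox1, Myh6 and Myl3, which did not overlap, fall within that rule, and Cthrc1, Tll1, Upk1b and Lrrn4 were named after their values were seen, because they were not tested. The main fit did not treat the samples as paired by replicate number (see the closing section). Alternatives covered background correction, scaling, the deposited table, filters, probe choice, blocks, variance models, array weights and arrays left out.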

Additional observations from a re-analysis of the deposited data

How the results depend on the processing

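Across the alternatives, the markers' adjusted p stayed above 0.05 except with the arrays scaled to the median of all probes (1 marker called) and with array weights (5 called, with the remaining weight mostly on H19 KO replicate 3, 25.4%). Scaling to the median of all probes put the all-gene median at 0.36 instead of -0.06, gave 6 markers without overlap, and put the markers' median at 1.11 and list medians at 1.04 (other resident fibroblast), 0.98 (activated fibroblast), 0.48 (partners of the markers), 0.37 (cardiomyocyte), 0.50 (endothelial), 0.44 (smooth muscle and pericyte) and 1.11 (mesothelial and epicardial). With normexp background correction the mesothelial and epicardial median was 0.30. The deviations of same-numbered arrays from their genotype mean correlated by -0.217, -0.0514 and 0.0369. With 3 arrays per genotype, such correlations cannot settle whether the replicate numbers pair the samples. A replicate block left the markers' median difference at 0.68 with 0 called. Slide as a block changed no marker call.

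Leaving out 1 array gave 0 markers called, 8 to 10 higher in H19 KO, 0 to 7 without overlap and a median of 0.15 to 1.0, with ranges of 0.49 to 1.16 for Pdgfra, 0.02 to 0.84 for Tcf21, -0.04 to 0.67 for Ddr2, 0.52 to 1.29 for Dpt, 0.15 to 1.78 for Mfap4, -0.02 to 1.23 for Mfap5, 0.02 to 0.76 for Thy1, 0.04 to 0.76 for Pcolce, 0.64 to 1.55 for Islr and 0.29 to 0.84 for Htra3. List medians then ran from 0.26 to 0.95 (other resident fibroblast), -0.0138 to 0.95 (activated fibroblast), -0.09 to 0.17 (partners), -0.15 to 0.04 (cardiomyocyte), -0.15 to 0.31 (endothelial), -0.10 to 0.11 (smooth muscle and pericyte), -0.89 to -0.32 (macrophage), -0.0027 to 0.75 (lymphocyte), 0.46 to 0.97 (mesothelial and epicardial), -0.50 to 0.38 (Schwann) and -0.10 to 1.11 (adipocyte). The fibroblast and partner lists were lowest without H19 KO replicate 2, the lymphocyte list without H19 KO replicate 3, and the endothelial, smooth muscle, Schwann and adipocyte lists without WT replicate 3. Without both H19 KO replicate 2 and WT replicate 3, Tcf21 was at -0.18, Ddr2 at -0.29, Mfap4 at -0.57, Mfap5 at -0.37, Thy1 at -0.19 and Pcolce at -0.15, 4 markers were higher with a median of -0.16, and list medians were -0.36 (activated fibroblast), 0.0809 (cardiomyocyte), -0.29 (endothelial) and -0.79 (Schwann). Within slide 1, 0 markers were higher and the median was -0.69, with list medians of -0.44 (other resident fibroblast), -0.95 (activated), -0.33 (partners), 0.18 (cardiomyocyte), -0.72 (endothelial), -1.01 (lymphocyte), -0.0485 (mesothelial) and -0.82 (Schwann). Within slide 2 they were 1.32 (other resident fibroblast) and 0.49 (endothelial). The cause of these shifts was not tested. H19 was lower in H19 KO under each alternative where it was measured, with differences of -7.30 to -6.82 when 1 array was left out. All 11 marker probes were well above background on every array, so dimness did not limit these values.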
